A study of Oryza sativa Japonica Group with 30 samples.

Results

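Many rice genes are silent or nearly so in leaves of watered plants, and a small set of these reached high levels when water was withheld. The genes described here were chosen by their FPKM: a mean below 0.5 FPKM in watered leaves of both genotypes and at least 10 FPKM in every one of the 6 drought libraries. FPKM is the number of sequenced fragments of a gene, scaled to the length of its exons and to the mapped fragments of the library. The rule was met by 54 of the 54372 genes that carry a LOC_Os locus ID in the table. These same values chose the genes, so their rise under drought is a description and carries no test.

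The data were RNA-Seq of leaves of 2 genotypes under 2 watering conditions, with 3 libraries in each of the 4 groups. ZH11 (Zhonghua 11) is a japonica rice variety and served as the wild type. OE-19 is a single transgenic line in the ZH11 background that expresses the full coding sequence of SNAC1, a NAC transcription factor, from the maize ubiquitin promoter. The groups were SNAC1-N and ZH11-N, grown with water, and SNAC1-D and ZH11-D, sampled after water was withheld from seedlings of the 4-leaf stage for 10 to 15 days, when leaves had curled and yellowed. Both genotypes grew side by side in the same pots, 10 plants of each, and the study describes its replicates as independent without saying how many plants made up a library. Only FPKM values were used, so the depth and the counting error of a low value are unknown. In such bulk leaf samples, fewer cells of a type and less RNA per cell cannot be told apart.

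Plants that lose water accumulate abscisic acid (ABA), which binds soluble receptors, blocks clade A protein phosphatases 2C and so releases kinases that activate bZIP transcription factors of the ABF class. NAC and homeodomain-leucine zipper factors act beside and below this route. Known products of the route include dehydrins and other late embryogenesis abundant proteins, which are made in drying seeds and which vegetative tissue makes mostly under water deficit. None of the 54 genes had a symbol or a function in the annotation used here, so no role is given to any of them and they are named by locus ID.

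Of the 54372 genes, 32926 were below 0.5 FPKM in both watered groups, and 21458 of these were listed at 0 in all 12 libraries. Only 240 of the 32926 reached 1 FPKM in every drought library, 75 reached 5 FPKM, 54 reached 10 FPKM, 35 reached 20 FPKM and 11 reached 100 FPKM. The 54 genes therefore had no shared level: their drought means ran from 16.1 to 829 FPKM, with a median of 55.3. Of the 54, 10 had a drought mean over 200 FPKM, and these 10 held 57.3% of the summed drought mean. A drought mean over 50 FPKM was found for 28 genes and one under 20 FPKM for 3.

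In watered leaves, the 54 genes gave 324 values, of which 69 were listed at 0 and 22 were above 0.5 FPKM. The highest single watered value was 1.02 FPKM, for LOC_Os12g08700 (named for this value) in SNAC1-N2, whose other 5 watered libraries ran from 0.0633 to 0.154. No gene was listed at 0 in all 6 watered libraries, although 2 were at 0 in all 3 SNAC1-N libraries and 3 in all 3 ZH11-N libraries. For each gene the lowest drought library was at least 17.0 times the highest watered library, the median of this ratio was 153, and it was over 100 for 32 of the 54.

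**Figure D1:**
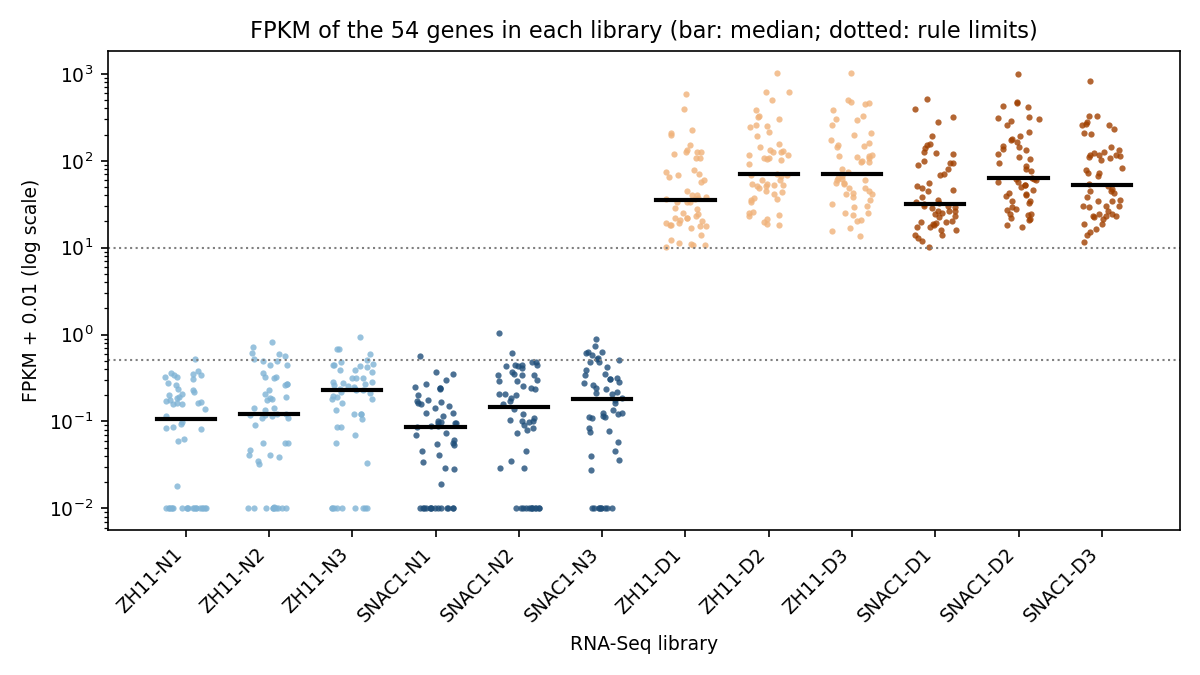
FPKM of the 54 genes (y axis, log scale, 0.01 added so that values of 0 can be drawn) in each of the 12 libraries (x axis), with 1 point per gene, a bar at the library's median and dotted lines at the limits of 0.5 and 10 FPKM. The medians lie between 0.0773 and 0.220 FPKM in watered leaves and between 32.1 and 70.3 FPKM under drought, and both replicates 1 of drought are the lowest of their group.

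As shares of the summed FPKM of a library, the 54 genes took 0.000749 to 0.00144% in watered leaves and 0.489 to 0.912% under drought. Fitted on log2(FPKM + 0.5), a scale that understates the change of genes near 0, the log2FC of drought over normal conditions ran from 4.03 to 10.04 in OE-19 (median 6.10) and from 4.42 to 9.90 in ZH11 (median 6.40). Over all 19979 features tested, the median was 0.07 in OE-19 and 0.06 in ZH11. Features higher under drought made up 13.2% of those tested in OE-19 and 13.8% in ZH11, and nothing is read from this for the 54, which the rule chose on this contrast.

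The highest gene was LOC_Os05g05930, with 513, 989 and 827 FPKM in SNAC1-D1 to SNAC1-D3 and 593, 1036 and 1014 FPKM in ZH11-D1 to ZH11-D3. Its watered values were 0, 0.198 and 0.534 FPKM in SNAC1-N and 0.197, 0.217 and 0.924 FPKM in ZH11-N. Replicate 1 was the lowest drought library in both genotypes, and the ranges of the genotypes overlapped. Next came LOC_Os04g33920, with 396, 415 and 332 FPKM in SNAC1-D and 393, 387 and 472 FPKM in ZH11-D. This gene was steady across the replicates, at 381 ± 43.8 FPKM in SNAC1-D and 417 ± 47.3 FPKM in ZH11-D (SD, n = 3).

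LOC_Os11g26570 had 281, 473 and 277 FPKM in SNAC1-D and 211, 615 and 446 FPKM in ZH11-D. LOC_Os04g52110 had 150, 463 and 328 FPKM in SNAC1-D and 152, 504 and 503 FPKM in ZH11-D. LOC_Os03g04080 had 122, 423 and 258 FPKM in SNAC1-D and 134, 626 and 466 FPKM in ZH11-D. For these 3 genes the highest library of each genotype was replicate 2, and in ZH11 replicate 1 lay far below both other libraries. LOC_Os03g14180 was different in that SNAC1-D1 was the highest of its group, with 318, 314 and 261 FPKM in SNAC1-D and 229, 258 and 379 FPKM in ZH11-D.

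Means between 194 and 282 FPKM were reached in both genotypes by LOC_Os04g36750 (258 ± 65.0 FPKM in SNAC1-D and 282 ± 73.1 in ZH11-D), LOC_Os01g06310 (219 ± 73.9 and 243 ± 119), LOC_Os08g23870 (223 ± 75.8 and 239 ± 104) and LOC_Os04g31710 (194 ± 70.1 and 212 ± 72.8) (SD, n = 3). The SD of each exceeded the distance between the genotypes. LOC_Os11g26750, LOC_Os06g02040, LOC_Os06g23350, LOC_Os03g20680 and LOC_Os04g01740 completed the 15 highest, with means from 120 to 140 FPKM in SNAC1-D and 134 to 191 FPKM in ZH11-D. Among these, LOC_Os06g23350 varied most, with 45.9, 215 and 145 FPKM in SNAC1-D and 67.7, 193 and 210 FPKM in ZH11-D. LOC_Os03g20680 varied least, with 127, 166 and 127 FPKM in SNAC1-D and 127, 126 and 159 FPKM in ZH11-D.

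**Figure D2:**
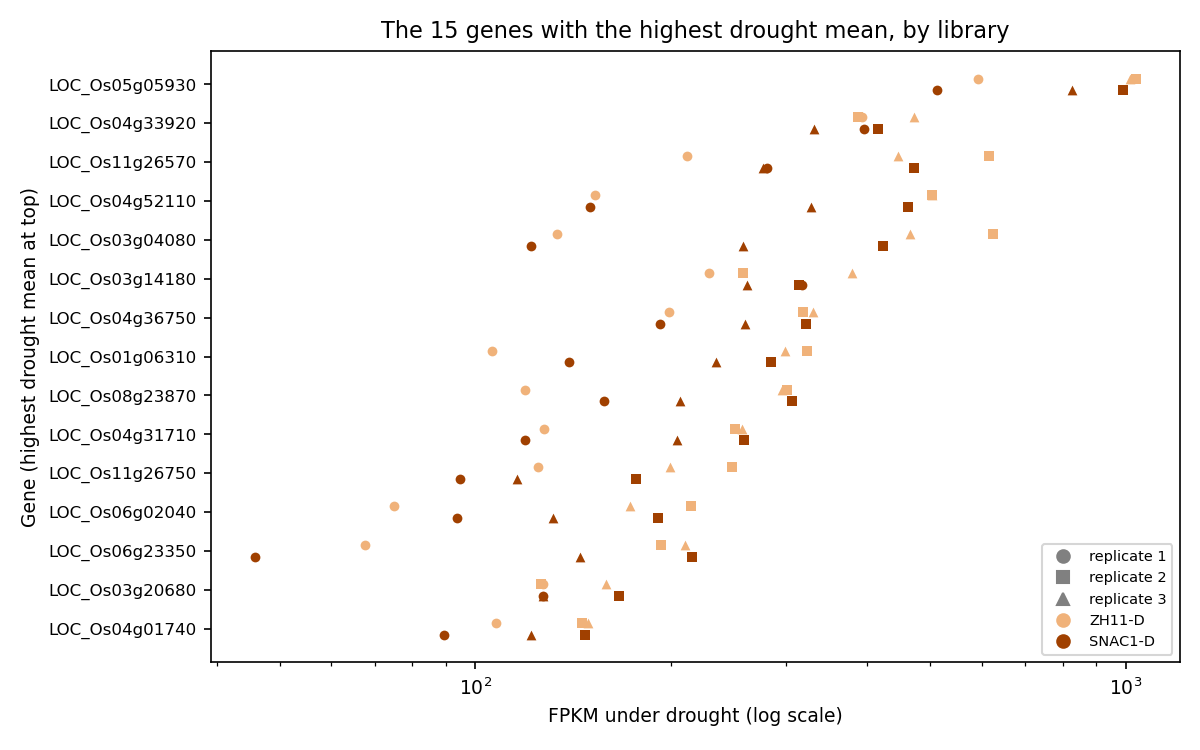
Drought FPKM (x axis, log scale) of the 15 genes with the highest drought mean (y axis), with the genotype shown by colour and the replicate by symbol. In most rows both circles, the replicates 1, lie to the left of the other points, as for LOC_Os03g04080 at 122 and 134 FPKM. The colours overlap in every row.

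Below these 15, the other 39 genes had drought means from 16.1 to 110 FPKM, with 13 over 50 FPKM, 23 from 20 to 50 FPKM and 3 under 20 FPKM. The lowest of the 54 was LOC_Os02g04630, with 10.2, 18.3 and 18.7 FPKM in SNAC1-D and 10.8, 18.6 and 20.2 FPKM in ZH11-D, beside 0.361, 0.435 and 0.602 FPKM in SNAC1-N and 0.255, 0.256 and 0.302 FPKM in ZH11-N. This gene had both the smallest drought level and one of the highest watered means of the set. Over the 54 genes the coefficient of variation of the 3 drought libraries had a median of 0.317 in SNAC1-D and 0.376 in ZH11-D.

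The drought replicates differed, and replicate 1 was low in both genotypes. Replicate 1 was the lowest SNAC1-D library for 42 of the 54 genes, the lowest ZH11-D library for 49 and the lowest in both genotypes for 40. Replicate 2 was the highest SNAC1-D library for 45 genes, and in ZH11-D the highest was replicate 2 for 31 genes and replicate 3 for 22. The value in replicate 1 over the mean of replicates 2 and 3 had a median of 0.649 in SNAC1-D (range 0.223 to 1.61) and of 0.502 in ZH11-D (range 0.135 to 1.29). For all features with a mean of at least 1 FPKM, the medians were 0.985 and 0.966. Scaling the libraries by median ratios left 52 of the 54 genes within the rule.

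The depth of this dip was shared by the genotypes gene by gene. Across the 54 genes, Spearman's rho between the ratio in SNAC1-D and the ratio in ZH11-D was 0.68, which is a description across genes of the same libraries. The ratio was under 0.5 in both genotypes for 13 genes and over 0.8 in both for 3. LOC_Os08g23170 showed it most strongly in ZH11, with 29.0, 136 and 102 FPKM in SNAC1-D and 17.9, 154 and 110 FPKM in ZH11-D. LOC_Os04g35490 showed it most strongly in OE-19, with 11.8, 61.0 and 44.4 FPKM in SNAC1-D and 19.0, 51.8 and 67.0 FPKM in ZH11-D. At the other end, LOC_Os07g44430 had 18.4, 23.5 and 14.0 FPKM in SNAC1-D and 20.6, 18.3 and 13.7 FPKM in ZH11-D. These 3 genes, and LOC_Os02g26720, were chosen after their values were seen. LOC_Os02g26720 split the genotypes, with replicate 1 the highest of SNAC1-D (26.5, 24.4 and 11.7 FPKM) and the lowest of ZH11-D (11.2, 54.2 and 15.7 FPKM). LOC_Os10g30150 was flat in ZH11-D at 22.1, 23.1 and 20.9 FPKM, and lowest in replicate 1 of SNAC1-D at 23.0, 34.8 and 34.1 FPKM.

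The dip was smaller in other drought-induced genes, a comparison described here without a test. A further 1571 LOC_Os genes were called higher under drought in both genotypes by limma (adjusted p under 0.05 and log2FC of at least 1) and had at least 10 FPKM in every drought library. Those with a watered mean of 0.5 to 2 FPKM had a median ratio of 0.785 in SNAC1-D and 0.625 in ZH11-D (99 genes). Those with a watered mean of 2 to 10 FPKM had medians of 0.852 and 0.733 (635 genes), and those at 10 FPKM or more had medians of 0.863 and 0.757 (831 genes). The medians thus rose with the watered level and were lowest for the 54. The size of the drought change fell over the same sets, with a median log2 change of 6.38 for the 54 and of 4.52, 1.92 and 1.54 for the others in this order, so level and change cannot be told apart here. Without a limma call, 686 other genes with at least 10 FPKM in every drought library and a drought mean over 4 times the watered mean had medians of 0.827 in SNAC1-D and 0.677 in ZH11-D. The remaining 6 genes, below 0.5 FPKM over the 6 watered libraries together, had medians of 0.701 and 0.542. A lower limit of 10 FPKM in every library applies to all of these genes. Some leaf genes, picked after the data were seen, lay the other way and do not stand for leaf genes in general. OsPORA, a protochlorophyllide oxidoreductase of chlorophyll synthesis, had a ratio of 3.74 in SNAC1-D and 2.78 in ZH11-D. OsCHLH, a subunit of magnesium chelatase, had 1.41 and 1.53, and OsGLK1, a transcription factor of chloroplast development, had 1.28 and 1.16. For all features with a mean of at least 1 FPKM, the upper quartile was 1.15 in SNAC1-D and 1.22 in ZH11-D. The ratio of OsGLK1 in ZH11 lay below that quartile. OsCHLH fell under drought from 236 to 74.9 FPKM in OE-19 and from 225 to 77.0 FPKM in ZH11 (limma adjusted p = 0.0056 and 0.0078). OsPORA went from 838 to 417 FPKM in OE-19 and from 706 to 285 FPKM in ZH11 (limma adjusted p = 0.070 and 0.046), and only the change in ZH11 passed the test. OsGLK1 went from 90.2 to 64.8 FPKM and from 88.5 to 69.0 FPKM and passed in neither genotype (limma adjusted p = 0.062 and 0.18). What these leaf genes share with the dip of the 54 was not tested.

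**Figure D3:**
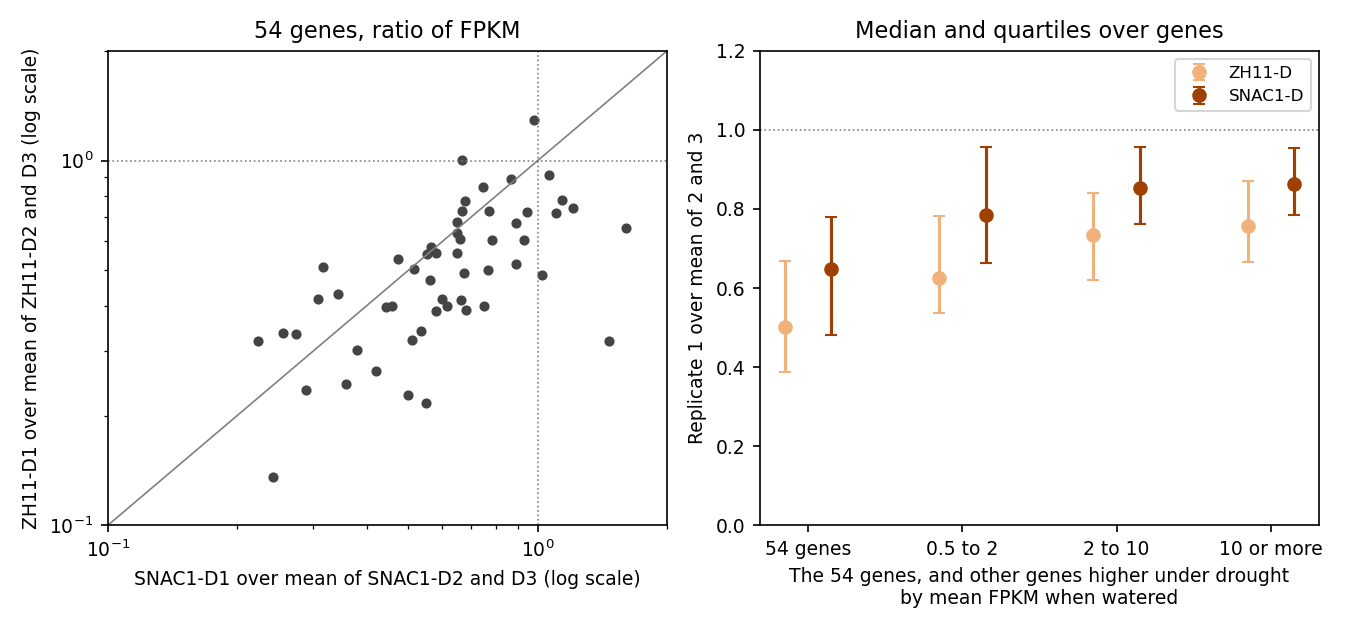
Left, FPKM of drought replicate 1 over the mean of drought replicates 2 and 3 in OE-19 (x axis) and ZH11 (y axis), both on log scales, with 1 point for each of the 54 genes, a line of equal values and dotted lines at 1. Right, the median of this ratio with its quartiles over genes (y axis, linear) for the 54 genes and for other drought-induced genes by their watered level. Of the sets drawn, the 54 genes have the lowest medians, 0.649 in SNAC1-D and 0.502 in ZH11-D. Another 6 drought-induced genes below 0.5 FPKM when watered, with nearby medians of 0.701 and 0.542, are not drawn.

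The dip bore on the drought edge of the set. The lowest drought library was a replicate 1 for 44 of the 54 genes. Without both replicates 1, an alternative added after the data were seen, 70 genes met the rule, the 54 among them. Just inside the drought limit were LOC_Os02g04630 (lowest value 10.2 FPKM, in SNAC1-D1), LOC_Os03g25490 (10.2 FPKM, in ZH11-D1) and LOC_Os12g43140 (10.9 FPKM, in ZH11-D1). Just outside were LOC_Os04g12960 (9.69 FPKM), LOC_Os05g02760 (9.23 FPKM) and LOC_Os09g21919 (9.15 FPKM), each for its value in ZH11-D1. At the watered limit, the larger group mean was 0.487 FPKM for LOC_Os05g07810, 0.485 FPKM for LOC_Os03g51760 and 0.466 FPKM for LOC_Os02g04630, all inside. Outside it were LOC_Os09g09040 (0.505 FPKM), LOC_Os11g43790 (0.525 FPKM) and LOC_Os05g06410 (0.530 FPKM). Of these, LOC_Os11g43790 reached at least 497 FPKM in every drought library, close to the lowest drought value of the highest of the 54 genes, 513 FPKM.

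SNAC1 (LOC_Os03g60080) itself was at 847 ± 129 FPKM in SNAC1-N and 37.2 ± 9.06 FPKM in ZH11-N, and at 798 ± 164 FPKM in SNAC1-D and 430 ± 101 FPKM in ZH11-D (SD, n = 3). Watered OE-19 leaves thus held more SNAC1 transcript than droughted ZH11 leaves, with no overlap between the libraries (764 to 995 against 329 to 530 FPKM). To read the genes in libraries that had not chosen them, the rule was applied to ZH11 alone, which was added after the data were seen. It found 60 genes. In watered OE-19 leaves 56 of these 60 were below 0.5 FPKM. Among all LOC_Os genes with a ZH11-N mean above 0 and below 0.5 FPKM, 95% were also below 0.5 FPKM in SNAC1-N, so the 60 were close to the background. The median of the 60 was 0.178 FPKM in SNAC1-N and 0.196 FPKM in ZH11-N.

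One of the 60, named after its values were seen, stood apart. LOC_Os01g16920 had 4.42, 10.9 and 2.02 FPKM in SNAC1-N, 0.442, 0.0831 and 0.262 FPKM in ZH11-N, 43.0, 136 and 96.4 FPKM in SNAC1-D and 29.6, 86.9 and 96.8 FPKM in ZH11-D. Its watered libraries did not overlap between the genotypes, yet the difference did not pass the test (log2FC 2.80, SE 0.62, limma adjusted p = 0.29). The other 3 genes that left the rule in watered OE-19 leaves had means under 1 FPKM there.

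Under drought, all 60 were higher in SNAC1-D than in SNAC1-N, with log2FC values from 3.85 to 10.04 and a median of 6.08. This is a description and carries no test, because all 54 genes of the set are among the 60. The rule had already asked these 54 for the same pattern in OE-19. The SNAC1 libraries were not used to choose the 60, but the plants came from the same pots. Genes that meet a limit in ZH11 mostly meet it in OE-19 too, by the shares given above and below. The count of 60 is therefore no independent support. At least 10 FPKM in every SNAC1-D library was reached by 58 of the 60, and 97.6% of all LOC_Os genes that did so in ZH11-D also did so in SNAC1-D. Applied to OE-19 alone, the rule found 74 genes, of which 63 were below 0.5 FPKM in ZH11-N (beside 96% of LOC_Os genes with a SNAC1-N mean above 0 and below 0.5 FPKM) and 64 reached 10 FPKM in every ZH11-D library (beside 95.8% of those that did so in SNAC1-D). Of the 74, 73 were higher in ZH11-D than in ZH11-N, again as a description without a test, since the 54 are among them. The exception, LOC_Os06g38580, also named after its values were seen, was listed at 0 in SNAC1-N, had 79.7, 62.4 and 82.3 FPKM in SNAC1-D, was listed at 0 in all 3 ZH11-D libraries and had 0, 22.3 and 0 FPKM in ZH11-N. The difference between its responses did not pass the test (limma adjusted p = 0.47).

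**Figure D4:**
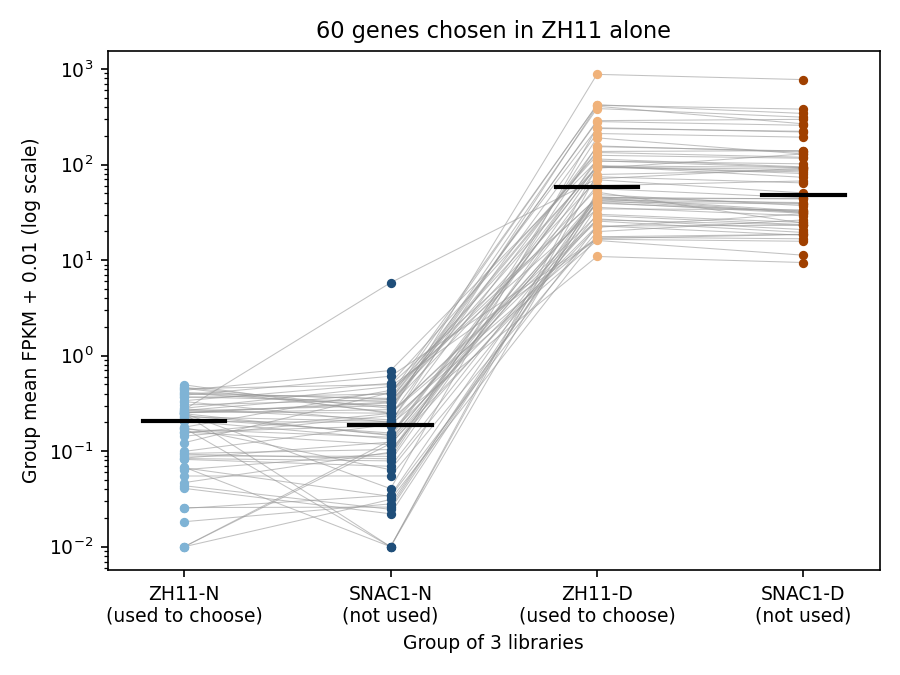
Group means (y axis, FPKM with 0.01 added, log scale) of the 60 genes that the rule found in ZH11 alone, in the 4 groups of 3 libraries (x axis), with 1 line per gene and a bar at the median. In SNAC1-N, which was not used to choose them, 56 of the 60 stay below 0.5 FPKM and LOC_Os01g16920 lies above the rest at 5.80 FPKM. In SNAC1-D the lowest mean is 9.43 FPKM.

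The drought levels of the 54 genes were compared between the genotypes, a contrast that the rule bounds without setting its direction. It asked for at least 10 FPKM in every drought library of both genotypes, so genes on in a single genotype were left out beforehand. The rank agreement and the counts below are limited by this choice. The means in SNAC1-D and ZH11-D ranked the genes almost alike (Spearman's rho 0.97 across the 54 genes). SNAC1-D was lower than ZH11-D for 44 of the 54, with a ratio of means from 0.473 to 1.41 and a median of 0.887. Of all features tested, 57.2% were lower in SNAC1-D. limma called 0 of the 54 (adjusted p under 0.05 and log2FC of at least 1), beside 0.305% of all features, and 4 of the 54 had an unadjusted p under 0.05, beside 1.48%. The median log2FC was -0.15 over the 54 and -0.02 over all features, with a range from -1.01 to 0.58 and a median SE of 0.34.

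The count of lower genes differed between the replicate numbers. Within replicate 3, 49 of the 54 genes were lower in SNAC1-D than in ZH11-D, with a median ratio of 0.745, and 52.0% of all features were lower. Within replicate 1 it was 28 genes, with a median ratio of 0.999 and 47.8% of all features lower. Within replicate 2 it was 30 genes, with a median ratio of 0.965 and 58.0% of all features lower. In all 3 replicates, 15 genes were lower (27.8%, beside 16% of all features) and 3 were higher (5.56%, beside 13.5%). Without ZH11-D replicate 3 the median log2FC was 0.01, without ZH11-D replicate 2 it was 0.03, and without SNAC1-D replicate 1 it was 0.09. It was -0.50 without ZH11-D replicate 1, -0.36 without SNAC1-D replicate 2 and -0.20 without SNAC1-D replicate 3. The direction for the set as a whole thus changed with single libraries.

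With the replicate number as a block, limma still called 0 of the 54, and 7 had an unadjusted p under 0.05 (13%, beside 5.22% of all features). The block lowered the median SE of the 54 from 0.34 to 0.17. All SNAC1-D libraries lay below all ZH11-D libraries for 3 genes (5.56%, beside 3.19% of all features) and above them for 0 (beside 3.06%). The 3 were LOC_Os06g51440, LOC_Os02g28220 and LOC_Os09g32095.

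LOC_Os06g51440 had 32.5, 17.4 and 23.1 FPKM in SNAC1-D and 38.0, 36.0 and 80.6 FPKM in ZH11-D (log2FC -1.01, SE 0.30, limma adjusted p = 1). Its watered values were 8.47e-22, 1.63e-18 and 4.18e-06 FPKM in SNAC1-N and 0.0502, 0.000286 and 0.124 FPKM in ZH11-N. The SNAC1-N values are far below what a whole fragment would give, and the level of the gene is uncertain where fragments could be shared with another locus. LOC_Os02g28220 had 70.9, 77.2 and 72.7 FPKM in SNAC1-D and 77.3, 115 and 97.9 FPKM in ZH11-D, a difference of -0.38 (SE 0.14). Its watered values were 0.115, 0.191 and 0.102 FPKM in SNAC1-N and 0.228, 0.262 and 0.221 FPKM in ZH11-N, again without overlap and not past the test (log2FC -0.21, SE 0.14, limma adjusted p = 1). LOC_Os09g32095 had 15.9, 21.2 and 21.4 FPKM in SNAC1-D and 22.9, 23.9 and 30.1 FPKM in ZH11-D.

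LOC_Os10g30150, whose levels are given above, was the only gene among the 5 with the smallest p that had the higher mean in SNAC1-D (log2FC 0.44, SE 0.18), and SNAC1-D1 overlapped with ZH11-D. LOC_Os01g45659 had 33.7, 34.7 and 24.4 FPKM in SNAC1-D and 33.8, 44.9 and 41.8 FPKM in ZH11-D (log2FC -0.38, SE 0.17). LOC_Os11g26750 had 94.7, 177 and 116 FPKM in SNAC1-D and 125, 248 and 199 FPKM in ZH11-D (log2FC -0.56, SE 0.26). The groups overlapped for both. LOC_Os11g26750 was lower in SNAC1-D in each replicate and had the smallest p of the 54 under the replicate block (limma adjusted p = 0.21).

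**Figure D5:**
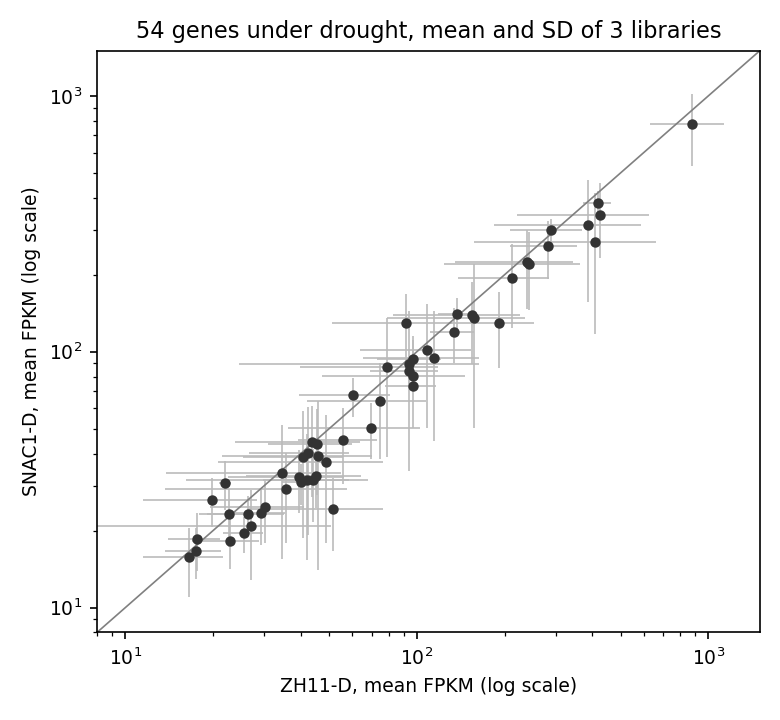
Mean FPKM under drought in ZH11-D (x axis) and SNAC1-D (y axis), both on log scales, for each of the 54 genes, with bars of 1 SD over 3 libraries and a line of equal values. Of the 54 points, 44 lie below the line, and LOC_Os06g51440, at 51.5 and 24.4 FPKM, lies farthest below it.

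In watered leaves no call between OE-19 and ZH11 was possible for the 54 genes, because 2 means below 0.5 FPKM cannot differ by a log2FC of 1 on the log2(FPKM + 0.5) scale. Their count of 0 therefore says nothing, and 0.265% of all features were called. An unadjusted p under 0.05 was found for 0 of the 54, beside 1.57%. With the replicate block, 6 had an unadjusted p under 0.05, beside 6.29%. The median log2FC was -0.01, and 28 of the 54 were lower in OE-19. Besides LOC_Os02g28220, the smallest p belonged to LOC_Os10g30150 (0.228, 0 and 0.102 FPKM in SNAC1-N and 0 in all 3 ZH11-N libraries), LOC_Os03g51760 (0, 0.331 and 0.383 against 0.373, 0.805 and 0.278 FPKM), LOC_Os09g32095 (0.0852, 0.174 and 0.310 against 0.169, 0.487 and 0.307 FPKM) and LOC_Os01g06310 (0.0915, 0 and 0 against 0.180, 0.316 and 0.218 FPKM). The libraries of LOC_Os01g06310 did not overlap, at a level where counting error is unknown.

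An interaction term, the response to drought in OE-19 minus that in ZH11, was called for 0 of the 54 genes, beside 0.02% of all features, and 0 had an unadjusted p under 0.05, beside 0.881%. With the replicate block, 6 had an unadjusted p under 0.05, beside 3.67%, and 0 were called. The rule asked for the same pattern in both genotypes, which limits these counts. The response of OE-19 was the smaller one for 37 of the 54, beside 52.2% of all features, with a median difference of -0.15 on the log2 scale and a range from -0.86 to 0.61. The median turned positive without SNAC1-D replicate 1 (0.07) or ZH11-D replicate 2 (0.06). Over all features the median difference was -0.01.

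The 54 genes were spread over all 12 chromosomes, as their locus IDs give them. Chromosome 4 held 10 of them (18.5%, with 9.51% of the LOC_Os genes), chromosome 3 held 7 and chromosome 1 held 6. No 2 of the genes were next to each other. The closest were LOC_Os02g04630 and LOC_Os02g04780, with 16 loci of the table between them, and LOC_Os11g26570 and LOC_Os11g26750, with 17.

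Of the 108 loci directly before and after the 54 genes, 46 passed the filter of a mean of 1 FPKM (42.6%, beside 36% of all LOC_Os genes). limma called 11 of these 46 higher under drought in OE-19 (23.9%, beside 13.2% of all features) and 9 in ZH11 (19.6%, beside 13.8%). It called 8 lower in each genotype. Over all features, calls higher and lower together made up 31% in OE-19 and 32% in ZH11. Nothing is read from these counts for the neighbours as a set. Of the neighbours, 3 are named here for their values. The strongest was LOC_Os11g26760, beside LOC_Os11g26750, with a mean of 1.50 FPKM in watered leaves and 257 FPKM under drought. LOC_Os03g58170, beside LOC_Os03g58180, rose from 7.26 to 151 FPKM, and LOC_Os02g04640, beside LOC_Os02g04630, rose from 3.06 to 30.3 FPKM. Whether fragments were assigned by strand is not given in the sources used here, so overlapping transcripts of neighbours could share fragments.

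Of a list of 39 loci of ABA and water-deficit genes, 4 were among the 54, beside 54 of all 54372 LOC_Os genes. The list was fixed with earlier results of these data known, so this overlap is a description and no enrichment is read from it. A symbol in the study's annotation was found for 19 of the 39, and none of these 19 was among the 54. The other 20 loci, which include the 4, had no symbol there and are given no role. Tests were possible for 18 of the 19. Of these, 12 were higher under drought in OE-19 (beside 13.2% of all features) and 12 in ZH11 (beside 13.8%). A lower level was called for 2 in OE-19 and 1 in ZH11. In either direction, 31% of all features were called in OE-19 and 32% in ZH11. Between the genotypes 0 of the 18 were called in either watering condition. The share of all features was 0.305% under drought and 0.265% when watered, so nothing is read from this 0. The nearest to the 54 in pattern were OsHOX24, a homeodomain-leucine zipper factor, with 3.57 and 2.60 FPKM in SNAC1-N and ZH11-N and 297 FPKM in SNAC1-D, and OsPP2C51, a clade A phosphatase, with 2.37 and 2.10 FPKM when watered and 168 FPKM in SNAC1-D. OsDhn1, a dehydrin, rose from 65.6 to 948 FPKM in OE-19, and so was strongly expressed already in watered leaves. OSVP1, a seed transcription factor of ABA signalling, was the only one of the 19 below 0.5 FPKM in both watered groups, and it remained at 0.219 FPKM in SNAC1-D.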

How the data were processed

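RNA-Seq was analysed for 12 libraries in 4 groups taken from the labels. The authors sequenced them on an Illumina instrument, mapped the reads to rice MSU 7.0 (HISAT2 is listed in the submitters' processing notes) and deposited one FPKM value per gene and library, normalized to exon length and mapped fragments. FPKM keeps no depth, so precision is given by the spread of 3 libraries. The p-values measure that spread, and the study gives the replicates as independent.

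The 54 genes and the gene lists were chosen with earlier results of these data known. R 4.3.3 with limma 3.58.1 fitted log2(FPKM + 0.5), two-sided with a variance trend, in one model of the 4 groups leaving out features whose mean was under 1 FPKM. All 54 genes passed this filter, through their drought values. Benjamini-Hochberg adjustment was over all 19979 features, and a call needed an adjusted p under 0.05 and a log2FC of at least 1. The paper's thresholds were used. Its text does not name the test, but DESeq2 is listed in the submitters' processing notes. The limma fit of log2(FPKM + 0.5) used here is a different method. Fold changes are on the log2(FPKM + 0.5) scale. The fitting code was tested on simulated data.

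Same-numbered libraries of the genotypes deviated together within each watering condition, and the genotypes shared pots. Across all features, r was 0.589, 0.58 and 0.211 under drought and 0.882, 0.486 and 0.507 when watered. Some libraries of unlike number did so too: SNAC1-N2 with ZH11-N3 (0.717), SNAC1-N3 with ZH11-N2 (0.6) and SNAC1-D2 with ZH11-D3 (0.276). The other unlike pairs were negative. Across all features the pairing is thus unclear for replicates 2 and 3 when watered and for replicate 3 under drought. A fit with the replicate number as a block is given as an alternative where it moves a count.

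Genes are named by a rule: the 15 highest drought means, the 5 smallest p of each genotype comparison, genes next to each other, and the 3 nearest to each limit. Others are said to have been chosen after their values were seen. Loci matched no ID of the RefSeq gene table (0 of 54), so no sequence is shown. Lists of leaf, seed and root markers carry no annotation here and are not described. The leaf genes OsPORA, OsCHLH and OsGLK1, which have a symbol, were added in their place after the data were seen. The ChIP-Seq tables hold scaled signal per interval and the authors' own fold changes, p-values and FDR. They carry no gene names and were not analysed here. Alternatives were other pseudocounts, filters, scalings, limits, blocks and leaving out each library.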

Additional observations from a re-analysis of the deposited data

How the results depend on the processing

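The number of genes meeting the rule was 54. It was 35 with a drought limit of 20 FPKM, 89 with a watered limit of 1 FPKM and 35 with a watered limit of 0.25 FPKM. It was 75 with a drought limit of 5 FPKM, 37 with every watered library below 0.5 FPKM and 52 after median ratio scaling, and it ran from 50 to 63 as each library was left out. The rule applied to ZH11 alone gave 60, to OE-19 alone 74 and without both drought replicates 1 gave 70, which were added after the data were seen.

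The count of the 54 genes called between OE-19 and ZH11 was 0 under drought and for the difference of responses, in the main model and in each of the 20 alternatives. It was also 0 when watered, where the rule and the pseudocount of 0.5 allow no call, so that this count says nothing about stability. Under drought the rule limits the count as well, since every drought library of both genotypes had to reach 10 FPKM. With the replicate block within each watering condition, unadjusted p under 0.05 was found for 7, 6 and 6 genes, against 4, 0 and 0 without it, and the block changed no call under drought or for the difference of responses. As single libraries were left out, the median log2FC ran from -0.50 to 0.09 under drought, from -0.06 to 0.06 when watered and from -0.47 to 0.07 for the difference of responses, and the drought count with an unadjusted p under 0.05 ran from 1 to 11 (11 without ZH11-D replicate 1). With a pseudocount of 0.1 that count was 1 under drought and 3 when watered, and with a filter at a mean of 5 FPKM it was 2 under drought. Unknown depth limits what can be read from watered values near 0. The ChIP-Seq comparison, its alternatives and the promoter motif counts were not run.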
